A study of Homo sapiens with 6 samples.

Results

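The genes of cholesterol and fatty acid synthesis were examined in T24 cells, an established human bladder carcinoma line, after silencing of RBM3, an RNA-binding protein first described as a cold-shock protein. The set was a list of 37 genes chosen by their known function, though with earlier results of these data known. It held 6 genes that control the sterol regulatory element binding proteins (SREBPs) and 18 enzymes of sterol synthesis. The rest were 4 proteins of sterol transport and 9 enzymes of fatty acid synthesis, desaturation and activation. Of the 63677 identifiers in the count table, 36 were members of the list, and 35 of these were among the 15099 genes that passed the filter on low counts. The expression of ACACA was not analysed here, though its promoter was among those searched. CYP51A1 did not pass the filter. It had 1 count in control replicate 1, 1 in siRBM3 replicate 3 and 0 in each of the other libraries. A share of 74.1% of the exon bases annotated to CYP51A1 is also annotated to other genes, 68.2% on the same strand, and no level was therefore read from its counts.

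Messenger RNA was sequenced from 3 libraries of cells given a non-targeting control siRNA and 3 libraries of cells given a pair of siRNAs against RBM3 (siRBM3). In both groups the cells were seeded for 24 h, transfected at 25 nM siRNA with Lipofectamine for 4.5 h in medium without serum, returned to full medium with 10% fetal bovine serum overnight and harvested the next day. All libraries therefore carried the same serum change, came from 1 cell line, and no untransfected library was analysed here. The labels do not say that the libraries of a group came from separate cultures, so p-values measure the spread between these libraries, which may be technical.

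Levels are given as CPM, the usual count of a gene scaled to the depth of its library, here with TMM factors, and differences as log2 fold changes of siRBM3 over control with their standard error (SE). All adjusted p-values (FDR) are those of the quasi-likelihood test of edgeR with Benjamini-Hochberg adjustment over the 15099 genes, unless DESeq2 is named. RBM3 itself was at 225, 368 and 301 CPM in control replicates 1, 3 and 5, and at 54.1, 90.1 and 58.4 CPM in siRBM3 replicates 3, 4 and 5. The groups did not overlap, and RBM3 was lower by a log2 fold change of -2.14 ± 0.24 (SE), with an FDR of 0.0822 in edgeR and an adjusted p of 3.87e-14 in DESeq2. Library totals lay between 23603992 and 45098612 counts. The deepest library, siRBM3 replicate 3, had 9.4% of its counts on mitochondrial genes, against 1.63% to 4.15% in the other libraries. Keratins were abundant, with summed epithelial and urothelial markers at 5264 to 6067 CPM in control and 4407 to 4514 CPM in siRBM3 libraries, although CDH1, KRT5, UPK1A, UPK1B and UPK3A did not pass the filter on low counts. Leukocyte markers summed to 2.22 to 3.02 CPM in control and 2.25 to 2.63 CPM in siRBM3, hepatocyte and adipocyte markers to 0.344 to 0.62 and 0.0975 to 0.726 CPM, and the endothelial markers CDH5 and VWF to 27.9 to 33.7 and 33.8 to 40.8 CPM. The epithelial and endothelial sums did not overlap between groups, and their part in the results was not tested. The endothelial sum was nearly all CDH5, with VWF at means of 0.483 CPM in control and 0.428 CPM in siRBM3. CDH5 alone did overlap, at 33.4 CPM in control replicate 3 and 33.3 CPM in siRBM3 replicate 5 (FDR 0.398 in edgeR). The listed endothelial marker PECAM1 was not analysed here. The epithelial markers did not share a direction, with KRT7 at a log2 fold change of -0.38 and KRT8 at -0.37 but EPCAM at 0.24 and GATA3 at 0.37, each without overlap of the groups (FDR 0.17 to 0.578 in edgeR). In bulk RNA, fewer cells expressing a gene and less of its RNA per cell cannot be told apart.

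Cells make cholesterol from acetyl-CoA through mevalonate, squalene and lanosterol, and fatty acids from the same precursor through malonyl-CoA. When membranes of the endoplasmic reticulum are low in sterol, SCAP carries SREBPs to the Golgi, where proteases release their active part to switch on both sets of genes. When sterol is plentiful, INSIG proteins hold SCAP back, and oxysterols activate the liver X receptors, which raise sterol efflux. SREBPs are weak activators by themselves and are known to bind DNA beside other factors, NF-Y and Sp1 among them.

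Promoters of 5 members are printed here, from the extremes of the motif counts. SREBF2 carried a sterol regulatory element core, NSDHL, MVK and MSMO1 the most NF-Y boxes, and ABCA1, an efflux gene, none. The sterol synthesis enzymes PMVK and CYP51A1 had no NF-Y box either, nor had SREBF1, SCAP, INSIG2, NPC1, ELOVL6 and FADS1. Each sequence runs 5′ to 3′ on the strand of the gene from 250 bases before to 50 bases after the RefSeq start, on GRCh38.p14, whereas the counts were made on GRCh37. Capitals mark CCAAT or its reverse complement, the box bound by NF-Y, and in SREBF2 also TCACCCCAC. The windows were chr22:41832855-41833154 (plus strand) for SREBF2, chrX:152830813-152831112 (plus strand) for NSDHL, chr12:109573544-109573843 (plus strand) for MVK, chr4:165327419-165327718 (plus strand) for MSMO1 and chr9:104928106-104928405 (minus strand) for ABCA1.
SREBF2: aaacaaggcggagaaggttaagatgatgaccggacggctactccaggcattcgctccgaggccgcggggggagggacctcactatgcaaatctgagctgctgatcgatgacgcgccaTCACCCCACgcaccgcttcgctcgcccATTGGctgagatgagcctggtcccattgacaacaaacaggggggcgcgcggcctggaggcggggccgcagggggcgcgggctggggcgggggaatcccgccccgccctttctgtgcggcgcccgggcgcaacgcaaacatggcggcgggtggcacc
NSDHL: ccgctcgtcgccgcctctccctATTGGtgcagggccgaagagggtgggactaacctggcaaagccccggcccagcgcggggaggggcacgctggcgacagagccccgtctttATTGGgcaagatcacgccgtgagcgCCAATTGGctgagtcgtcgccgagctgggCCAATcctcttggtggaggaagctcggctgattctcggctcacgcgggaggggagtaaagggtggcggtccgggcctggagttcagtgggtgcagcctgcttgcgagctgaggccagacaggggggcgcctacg
MVK: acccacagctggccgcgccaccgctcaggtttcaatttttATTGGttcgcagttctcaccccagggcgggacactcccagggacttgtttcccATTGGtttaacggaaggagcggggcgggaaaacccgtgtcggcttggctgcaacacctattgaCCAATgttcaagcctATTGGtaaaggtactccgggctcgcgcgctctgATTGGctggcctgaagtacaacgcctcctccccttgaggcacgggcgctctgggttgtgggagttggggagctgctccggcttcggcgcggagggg
MSMO1: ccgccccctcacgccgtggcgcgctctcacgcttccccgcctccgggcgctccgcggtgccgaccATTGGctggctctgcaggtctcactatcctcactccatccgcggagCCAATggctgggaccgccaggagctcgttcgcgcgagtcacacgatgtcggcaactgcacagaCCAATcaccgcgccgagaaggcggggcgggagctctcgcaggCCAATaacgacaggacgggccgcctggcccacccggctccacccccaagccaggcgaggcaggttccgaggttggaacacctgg
ABCA1: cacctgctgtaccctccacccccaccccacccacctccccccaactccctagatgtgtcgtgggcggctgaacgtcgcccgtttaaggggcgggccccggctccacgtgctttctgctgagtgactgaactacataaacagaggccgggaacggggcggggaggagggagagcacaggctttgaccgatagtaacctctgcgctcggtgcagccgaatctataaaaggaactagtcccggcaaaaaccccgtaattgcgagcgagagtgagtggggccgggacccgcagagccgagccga

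Promoters of 33 of the 37 members were found in the RefSeq table, and those of ACAT2, FDFT1, SQLE and FASN were not. Both strands were searched for exact matches, and matches could overlap, as a pair in NSDHL does. NF-Y boxes (CCAAT) were present in 13 of 15 sterol synthesis genes (86.7%), 6 of 8 fatty acid synthesis genes (75%), 3 of 6 SREBP control genes (50%) and 2 of 4 transport genes (50%). Among 15843 protein-coding genes with a promoter in the table the share was 42.1%, and it was 39.7% among all 27305 genes. The contrast was wider for 2 or more boxes, which 10 of the 15 sterol synthesis genes carried (66.7%) and 14.8% of the protein-coding genes. NSDHL and MVK had 5 boxes each and MSMO1 had 4. The sterol regulatory element core (TCACNCCAC) matched exactly in SREBF2 alone among the 33 members (3.03%), against 1.51% of protein-coding genes. The E-box (CACGTG) was found in 5 of the 33 (15.2%), against 10.9%, and the Sp1 box (GGGCGG) in 32 of the 33 (97%), against 64.3%. A match describes the letters of the window and is not a measured binding site. The shares of protein-coding genes and of all genes also cover genes that did not pass the filter on low counts, which nearly all members passed. No share among the tested genes was taken.

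**Figure D1:**
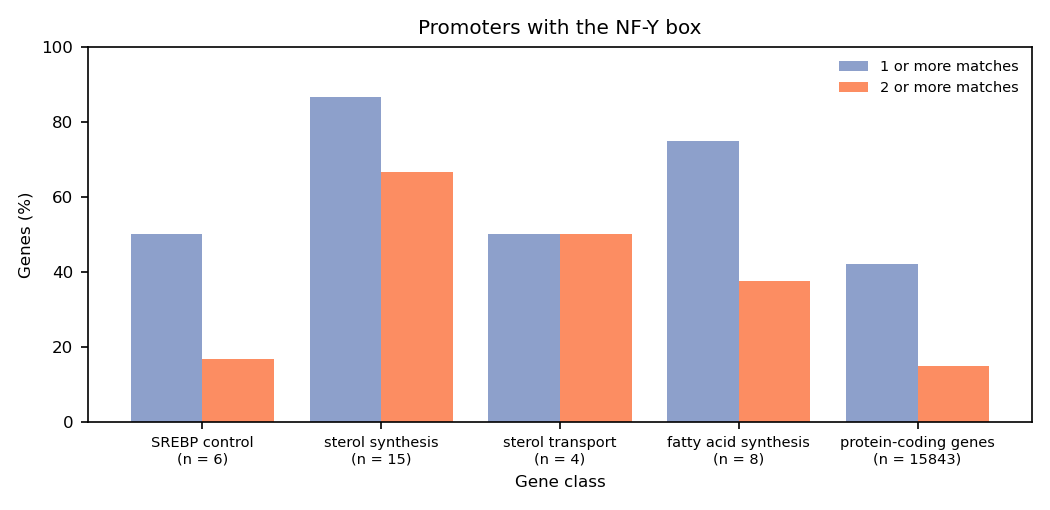
Share of genes (%) whose promoter window holds at least 1 (blue) or at least 2 (orange) NF-Y boxes, for each class of members and for protein-coding genes, with the number of genes under each pair of bars. Sterol synthesis genes reached 86.7% and 66.7%, protein-coding genes 42.1% and 14.8%.

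No member was past both thresholds, an FDR below 0.01 and a change of 1.5-fold or more, nor was any of the 15099 genes (0%) in edgeR. DESeq2 called 159 of 13068 genes (1.22%) at the same thresholds, and none of them was a member. At an unadjusted p below 0.05, edgeR had 0 of the 35 members higher and 2 lower, beside 6.56% of all genes higher and 6.58% lower, so the members' share was no larger than that of the background. The sign of the changes was less balanced. Of the 35 members, 28 had a log2 fold change below 0, beside 51.5% of all genes, and the median was -0.10 beside -0.01. Every siRBM3 library was above every control library for 0 members, beside 9.98% of all genes, and below for 5, beside 9.93%.

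The classes were not alike in sign. Sterol synthesis enzymes had 16 of 17 log2 fold changes below 0 with a median of -0.18 and a range from -0.45 to 0.06, and fatty acid synthesis enzymes had 7 of 8 below 0 with a median of -0.07. SREBP control genes were evenly divided, 3 higher and 3 lower with a median of 0.02, and so were the transport genes, 2 and 2 with a median of -0.05. These counts describe the lists and carry no test.

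**Figure D2:**
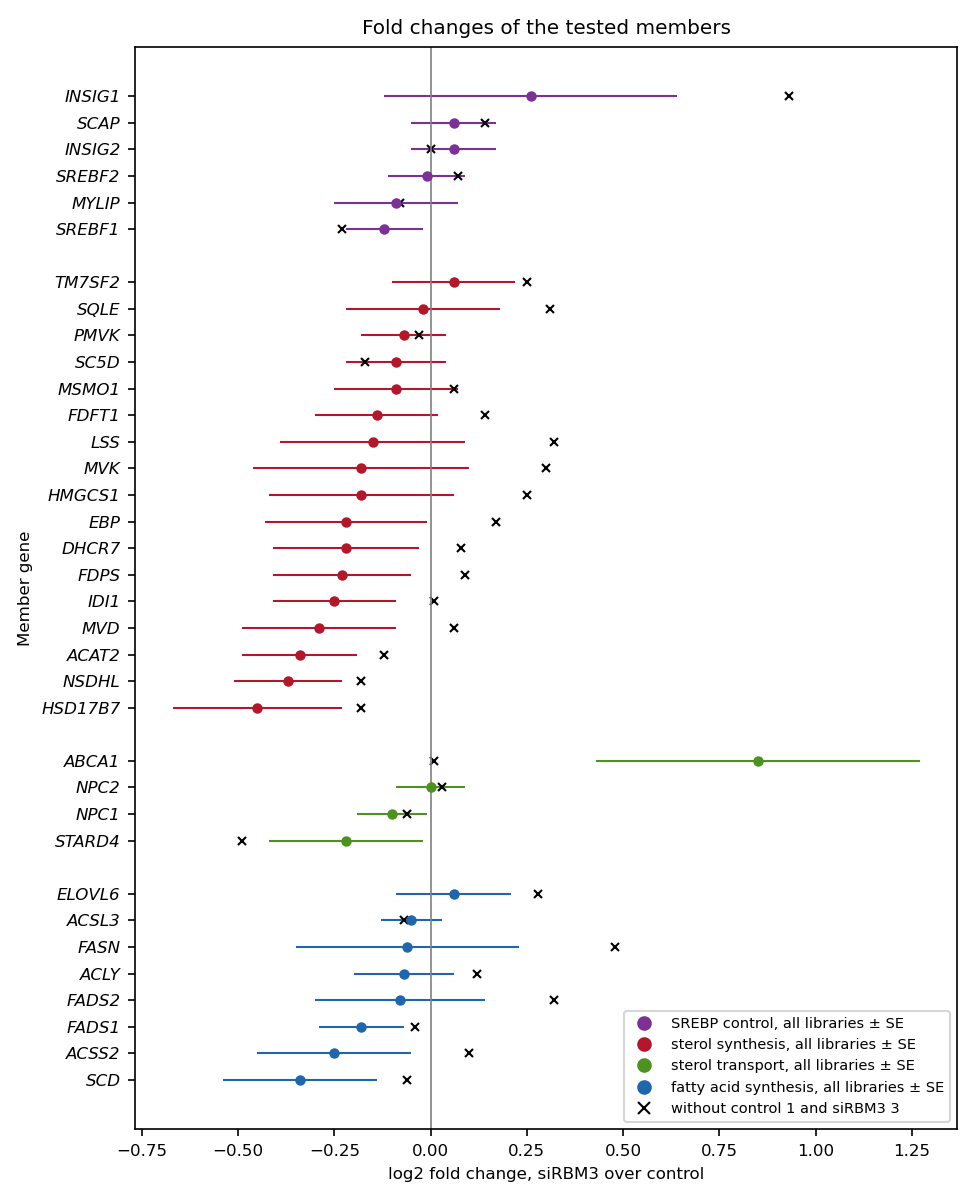
Log2 fold change of siRBM3 over control for the 35 tested members, grouped by class. Points with bars are the fit of all 6 libraries ± SE, and crosses are the values without control replicate 1 and siRBM3 replicate 3. With all libraries 16 of 17 sterol synthesis points lie left of 0, whereas 12 of 17 crosses lie right of it. The libraries left out were chosen after seeing the data and were the extremes for most of these genes.

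The genes that control SREBPs stand first in the order of the pathway. SREBF1, on chr17:17713713-17740316 of GRCh37 (minus strand), encodes the SREBP best known for fatty acid synthesis and was at 252, 285 and 265 CPM in control and 268, 240 and 228 CPM in siRBM3. One siRBM3 library lay within the control range and the other two below it, with a log2 fold change of -0.12 ± 0.10 (FDR 0.645). SREBF2, on chr22:42229109-42303310 (plus strand), encodes the SREBP best known for cholesterol synthesis and was at 396, 345 and 332 CPM in control and 355, 358 and 353 CPM in siRBM3. All siRBM3 values lay inside the control range, and the log2 fold change was -0.01 ± 0.10 (FDR 0.982). SCAP, the escort of SREBPs, INSIG2, its retention partner, and MYLIP, a ubiquitin ligase induced by liver X receptors, had log2 fold changes of 0.06, 0.06 and -0.09, with SE between 0.11 and 0.16.

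INSIG1, on chr7:155089486-155101945 (plus strand), is both a brake on SREBP processing and itself an SREBP target. It was at 96.3 CPM in control replicate 1 but at 37.4 and 35.6 CPM in control replicates 3 and 5, and at 64.3, 58.4 and 80.9 CPM in siRBM3. All siRBM3 libraries were above a pair of controls and below the third, so that the control spread, 56.4 ± 34.5 CPM (SD, n = 3), was wider than the difference from siRBM3, 67.8 ± 11.7 CPM (SD, n = 3). The log2 fold change was 0.26 ± 0.38 (FDR 0.817). Without control replicate 1 it was 0.89 ± 0.15 with an FDR of 0.0573 in edgeR, which did not reach 0.01, and it was 0.04 without control replicate 3 and 0.02 without control replicate 5.

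Sterol synthesis was next. The first steps join acetyl-CoA units and lead to mevalonate and its phosphates. ACAT2, the acetyl-CoA acetyltransferase that opens the route, on chr6:160183077-160200144 (plus strand), was at 82.7, 65.4 and 75.0 CPM in control and 47.8, 64.7 and 64.4 CPM in siRBM3. Every siRBM3 library was below every control library, although the gap between 64.7 and 65.4 CPM was small. The log2 fold change was -0.34 ± 0.15 with an unadjusted p of 0.0489 and an FDR of 0.379 in edgeR, and it was -0.20 without siRBM3 replicate 3 and -0.12 without control replicate 1 as well. A share of 22.2% of the exon bases of ACAT2 overlaps TCP1, SOD2 and SOD2-OT1 on the opposite strand, and the strand setting of the counting is not given. HMGCS1, which forms HMG-CoA, was at -0.18 ± 0.24, with 37.7% of its exon bases under an antisense gene. The kinases MVK and PMVK were at -0.18 ± 0.28 and -0.07 ± 0.11, and the decarboxylase MVD at -0.29 ± 0.20.

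The isoprenoid steps had the same sign. IDI1, which isomerises isopentenyl diphosphate, was at -0.25 ± 0.16, and FDPS, which builds farnesyl diphosphate, at -0.23 ± 0.18. FDFT1, the squalene synthase and first committed step to sterols, was at -0.14 ± 0.16. SQLE, the squalene epoxidase and a rate-limiting enzyme, was at -0.02 ± 0.20, and LSS, which closes the sterol rings, at -0.15 ± 0.24. None of these had an FDR below 0.553. Per length of exon, FDPS was the most abundant sterol synthesis enzyme in control, at 53.3 RPKM (CPM divided by exon length in kilobases). HSD17B7 was the least of those tested at 2.06 RPKM, close to MVK at 2.09 RPKM. Exon length here covers all annotated exons of a gene together and can exceed that of its transcript, so these ranks depend on the annotation.

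In the steps from lanosterol to cholesterol, 2 enzymes of C4 demethylation had the lowest log2 fold changes of the class. NSDHL, the sterol 4-alpha-carboxylate dehydrogenase, on chrX:151999511-152038273 (plus strand), was at 46.2, 39.9 and 40.1 CPM in control and 27.2, 33.2 and 37.5 CPM in siRBM3. Every siRBM3 library was below every control library, and siRBM3 replicate 3 was the lowest. The log2 fold change was -0.37 ± 0.14 with an unadjusted p of 0.0295 and an FDR of 0.322 in edgeR, and the adjusted p of DESeq2 was 0.266. HSD17B7, the 3-keto reductase of the same complex of reactions, on chr1:162760492-162782613 (plus strand), was at 10.7, 9.41 and 9.53 CPM in control and 5.04, 8.73 and 7.95 CPM in siRBM3. Again the groups did not overlap and siRBM3 replicate 3 was the lowest, with a log2 fold change of -0.45 ± 0.22 (FDR 0.423). It was -0.24 without siRBM3 replicate 3 and -0.18 without control replicate 1 as well, where NSDHL was at -0.25 and -0.18. Reads of HSD17B7 and FDPS may be shared with near-identical copies elsewhere in the genome, so their counts are uncertain.

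The third enzyme of C4 demethylation, MSMO1, was at -0.09 ± 0.16, and its siRBM3 libraries lay inside the control range. EBP, the sterol isomerase, was at -0.22 ± 0.21, with 36.4% of its exon bases shared with another gene on the same strand. SC5D, the lathosterol oxidase, was at -0.09 ± 0.13, and DHCR7, which reduces 7-dehydrocholesterol to cholesterol, at -0.22 ± 0.19. TM7SF2, a sterol C14 reductase, was the only sterol synthesis gene above 0, at 0.06 ± 0.16.

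**Figure D3:**
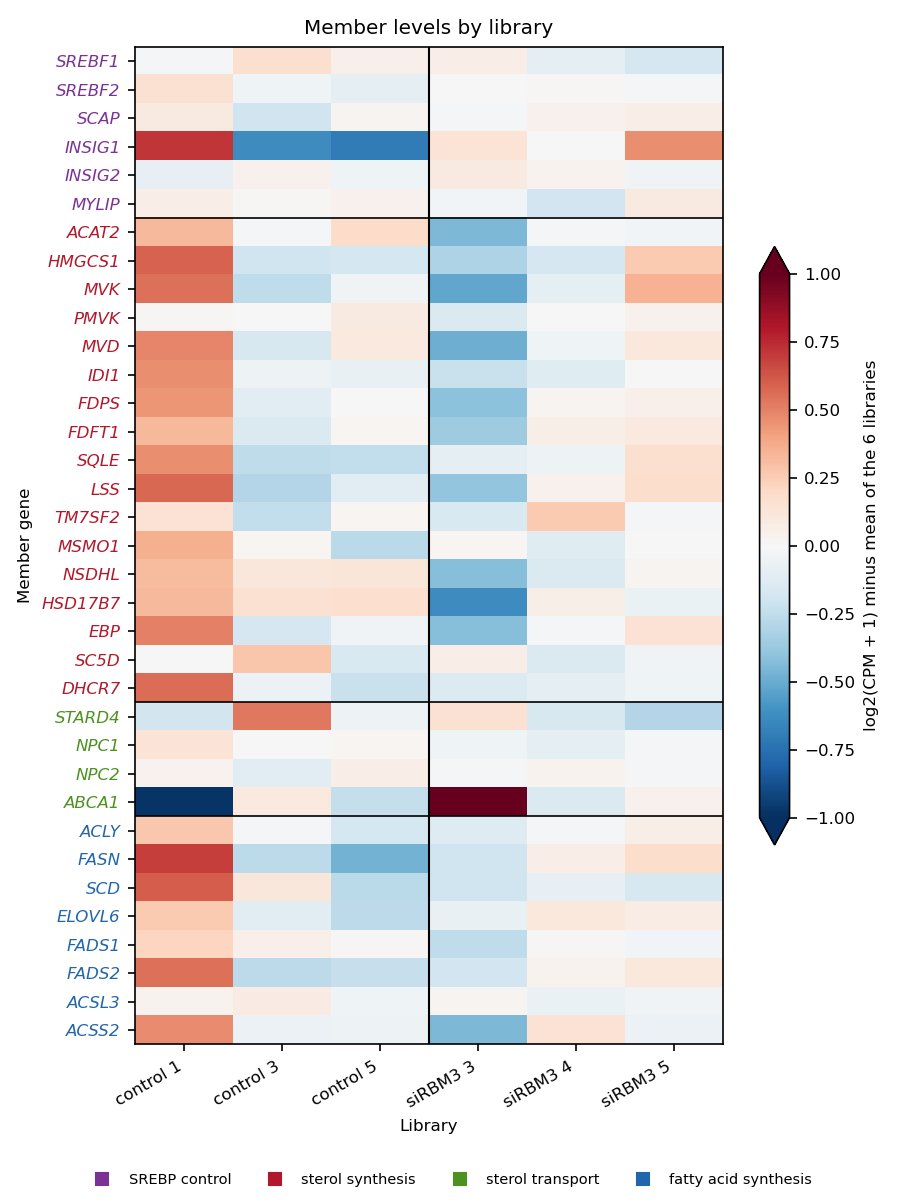
Level of each tested member (rows, coloured by class) in each library (columns), as log2(CPM + 1) minus its mean over the 6 libraries, with red above and blue below that mean and the ends of the colour scale open. Control replicate 1 is red in most sterol and fatty acid synthesis genes, siRBM3 replicate 3 is blue in most sterol synthesis genes, and ABCA1 shows the opposite pair of colours.

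A few libraries were the extremes for many of these genes, though not for all of them. Control replicate 1 was the highest of the 6 libraries for 14 of 17 sterol synthesis genes (82.4%) and 7 of 8 fatty acid synthesis genes (87.5%), beside 21.7% of all genes. Library siRBM3 replicate 3 was the lowest for 12 of 17 sterol synthesis genes (70.6%), beside 19.4% of all genes. Of the 8 fatty acid synthesis genes it was the lowest for 2 (25%). Control replicate 5 was the lowest for 4 of these 8 (50%), beside 14.8% of all genes. As a mean over the 17 sterol synthesis genes, the deviation from the mean of the libraries on the log2(CPM + 1) scale was 0.38, -0.08 and -0.04 in control and -0.30, -0.03 and 0.07 in siRBM3. Control replicates 3 and 5 and siRBM3 replicates 4 and 5 thus lay between -0.08 and 0.07, while control replicate 1 stood above and siRBM3 replicate 3 below all of them. For fatty acid synthesis the deviations were 0.39, -0.06 and -0.19 in control and -0.18, 0.02 and 0.02 in siRBM3. The group means for sterol synthesis were 0.09 ± 0.25 and -0.09 ± 0.19 (SD, n = 3), and the difference was smaller than the SD of the control group.

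Without control replicate 1, sterol synthesis had 9 log2 fold changes above 0 and 8 below with a median of 0.00, and fatty acid synthesis had 4 and 4 with a median of 0.01. The fatty acid synthesis median went to -0.20 when control replicate 3 was left out instead, and to -0.22, all 8 genes below 0, when control replicate 5 was. Without siRBM3 replicate 3, the sterol synthesis median was -0.10, with 13 of 17 below 0, and no member had a p below 0.05, beside 4.36% of all genes higher and 5.42% lower. With both libraries left out, a choice made after seeing the data, 12 of 17 sterol synthesis genes were above 0 with a median of 0.08, and 5 members were higher at an unadjusted p below 0.05, namely FADS2, FASN, INSIG1, LSS and SQLE (14.3%), while STARD4 was lower (2.86%), beside 7.98% and 9.87% of all genes in that fit. INSIG1 then had a log2 fold change of 0.93 ± 0.16 with an FDR of 0.0233 in edgeR, FASN 0.48 ± 0.12 with an FDR of 0.0752, and the other 4 had FDR values between 0.19 and 0.225. The libraries left out were the highest and the lowest for most sterol synthesis genes, so a shift upward followed from the choice. The p-values and FDR values of this fit therefore carry no support for a change. Of these libraries siRBM3 replicate 3 was also the deepest and had the largest mitochondrial share, and the part of depth and of that share in the result was not tested.

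**Figure D4:**
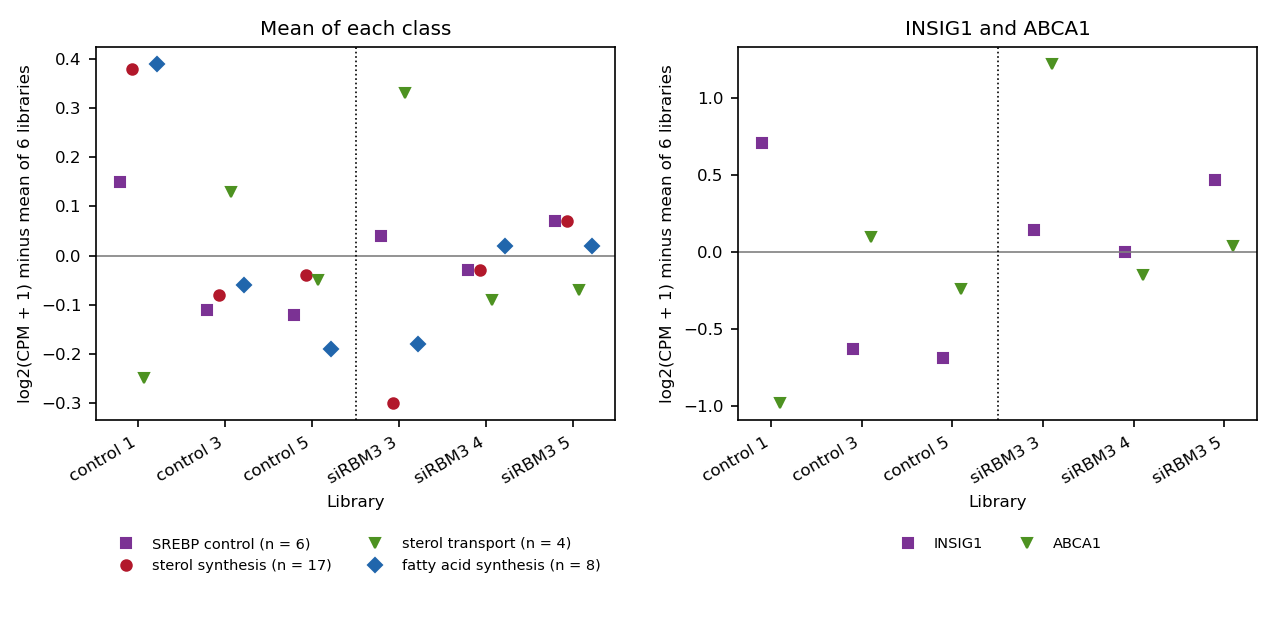
Left, mean over the tested genes of each class of log2(CPM + 1) minus the mean of the 6 libraries, by library, and right, the same for INSIG1 and ABCA1; the dotted line divides control from siRBM3 libraries. Sterol synthesis (red circles) is at 0.38 in control replicate 1 and -0.30 in siRBM3 replicate 3, and ABCA1 is at -0.98 and 1.22 in the same libraries.

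Among the transport genes no member had an unadjusted p below 0.05. ABCA1, the exporter of cholesterol to apolipoproteins and a target of liver X receptors, on chr9:107543287-107690436 (minus strand), was at 12, 26.4 and 20.7 CPM in control and 58.7, 22.2 and 25.4 CPM in siRBM3. Control replicate 1 was the lowest and siRBM3 replicate 3 the highest, the reverse of most sterol synthesis genes, and the remaining 4 libraries overlapped. The log2 fold change was 0.85 ± 0.42 with an FDR of 0.449 in edgeR and an adjusted p of 0.244 in DESeq2, and it was 0.27 without siRBM3 replicate 3, 0.59 without control replicate 1 and 0.01 without both. NPC1, which moves cholesterol out of lysosomes, on chr18:21086148-21166470 (minus strand), was at 80.6, 73.1 and 74.4 CPM in control and 71.2, 68.9 and 72.3 CPM in siRBM3. The groups did not overlap, but the log2 fold change was only -0.10 ± 0.09 (FDR 0.673). Its lysosomal partner NPC2 was at 0.00 ± 0.09, and STARD4, a soluble sterol carrier, at -0.22 ± 0.20, from 173 CPM in control replicate 3 to 97.5 CPM in siRBM3 replicate 5.

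The smallest p of the fatty acid synthesis genes was that of SCD, the stearoyl-CoA desaturase that makes monounsaturated fatty acids, on chr10:102106990-102124583 (plus strand). It was at 549, 389 and 298 CPM in control and 313, 339 and 321 CPM in siRBM3. The siRBM3 libraries were close together at 325 ± 13.5 CPM (SD, n = 3) and lay within the wide control range of 412 ± 127 CPM (SD, n = 3). The log2 fold change was -0.34 ± 0.20 (FDR 0.508), and it was -0.08 without control replicate 1 and -0.53 without control replicate 5. FADS1, the delta-5 desaturase of polyunsaturated fatty acids, on chr11:61567099-61596790 (minus strand), was at 290, 259 and 252 CPM in control and 210, 252 and 246 CPM in siRBM3. The groups met at 252 CPM without overlapping, with a log2 fold change of -0.18 ± 0.11 (FDR 0.521).

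FASN, the fatty acid synthase, was examined outside the rule for named genes, after its values were seen, because its control libraries differed most within the class. It was at 604, 312 and 270 CPM in control and 326, 391 and 423 CPM in siRBM3, so that every siRBM3 library was above control replicates 3 and 5 and below control replicate 1. The log2 fold change was -0.06 ± 0.29 with all libraries and 0.38 ± 0.14 without control replicate 1, with an FDR of 0.229 in edgeR. ACLY, which supplies cytosolic acetyl-CoA, was at -0.07 ± 0.13, and ACSS2, which makes acetyl-CoA from acetate, at -0.25 ± 0.20. The elongase ELOVL6 was at 0.06 ± 0.15, the delta-6 desaturase FADS2 at -0.08 ± 0.22 and the acyl-CoA synthetase ACSL3 at -0.05 ± 0.08. ACLY and SCD were the most abundant members per length of all annotated exons, at 83.1 and 78.6 RPKM in control, and ABCA1 was the lowest of those tested at 1.74 RPKM.

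A further 52 genes of the same pathways, all of them tested, were followed in 4 lists. Of these, 18 were above 0 and 34 below with a median log2 fold change of -0.06, and 1 was higher and 4 lower at an unadjusted p below 0.05, beside the 6.56% and 6.58% of all genes given above. The list of SREBP processing and liver X receptor genes had 1 of 12 at that level. This was MBTPS1, the site-1 protease that makes the first cut in SREBPs in the Golgi and also cuts other membrane-bound factors. It was at 159, 115 and 137 CPM in control and 212, 202 and 217 CPM in siRBM3. All siRBM3 libraries were above all control libraries, with a log2 fold change of 0.62 ± 0.12, a fold change of 1.54, an FDR of 0.118 in edgeR and an adjusted p of 0.00461 in DESeq2, which passed both thresholds. MBTPS2, the protease of the second cut, was at -0.26 ± 0.13 (FDR 0.435), with every siRBM3 library below every control library, so that the 2 proteases had opposite signs. The liver X receptors NR1H2 and NR1H3 were at -0.02 (FDR 0.959) and -0.25 (FDR 0.499).

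In the other lists the genes with a p below 0.05 were all lower. Of 11 genes of the non-sterol branch of the mevalonate pathway it was PGGT1B, the beta subunit of a protein prenyltransferase, at 22.1, 30.8 and 24.3 CPM in control and 17.9, 19.1 and 18.9 CPM in siRBM3. The groups did not overlap, and the log2 fold change was -0.46 ± 0.15 (FDR 0.248). Of 10 genes of cholesterol handling it was GRAMD1B, which carries cholesterol from the plasma membrane to the endoplasmic reticulum, at 3.45, 3.4 and 2.82 CPM in control and 2.12, 1.74 and 1.61 CPM in siRBM3. Here too the groups did not overlap, with a log2 fold change of -0.81 ± 0.22 (FDR 0.191).

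Of 19 other genes of fatty acid synthesis and activation, 2 had a p below 0.05, both dehydratases of the elongation cycle of very long chain fatty acids. HACD2 was at 68.7, 71.5 and 57.9 CPM in control and 32.0, 48.4 and 44.4 CPM in siRBM3. All siRBM3 libraries were lower, with a log2 fold change of -0.67 ± 0.16, an FDR of 0.17 in edgeR and an adjusted p of 0.024 in DESeq2. HACD1 was at 5.82, 6.58 and 7 CPM in control and 4.56, 4.27 and 3.75 CPM in siRBM3, again without overlap, at -0.62 ± 0.17 (FDR 0.208). HACD3, a further dehydratase of the cycle, was at -0.03 (FDR 0.94).

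**Figure D5:**
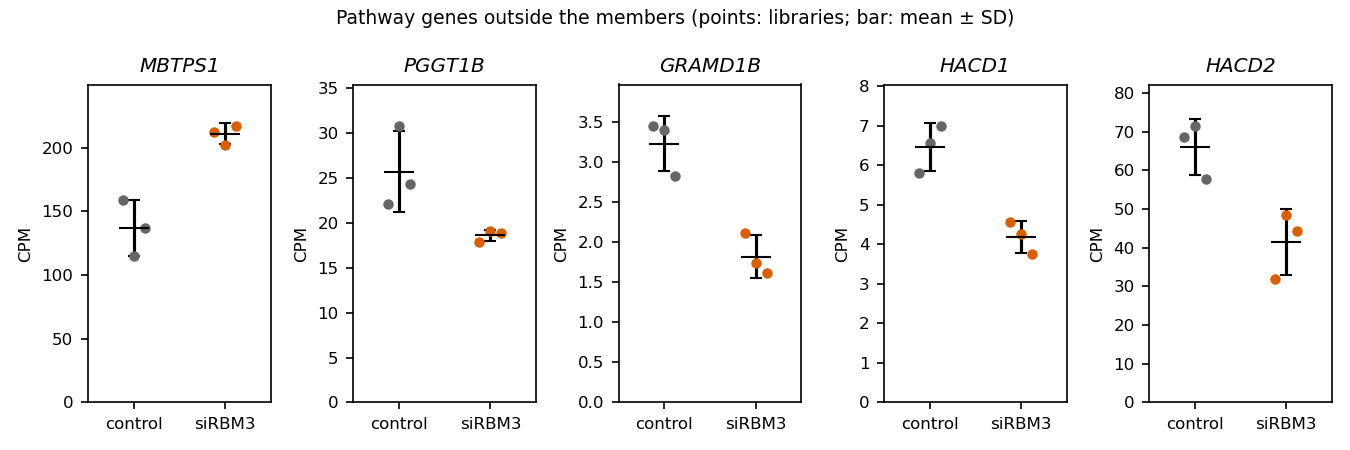
CPM of MBTPS1, PGGT1B, GRAMD1B, HACD1 and HACD2 in each library (points) with the mean ± SD of each group (n = 3), on axes that start at 0. MBTPS1 is higher in every siRBM3 library (202 to 217 CPM) than in every control library (115 to 159 CPM), and the other 4 genes are lower in every siRBM3 library.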

How the data were processed

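RNA from T24 cells given control siRNA or siRBM3 was sequenced as single-end reads of a stranded, poly(A)-selected library on an Illumina NextSeq instrument. The authors trimmed reads with BBDuk, aligned them to hg19/GRCh37 with STAR 2.5.2a, marked duplicates with Picard and deposited featureCounts counts per Ensembl gene, without normalization. The handling of marked duplicates, like the strand setting and annotation release, was not given in the sources used here. All 6 columns were mapped to samples by their titles, and 0 columns were unused.

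Symbols, positions and exon lengths were taken from GENCODE v44 lifted to GRCh37 (55665 identifiers matched). Genes were kept by filterByExpr of edgeR 4.0.16 (minimum count 10, minimum total 15), scaled by TMM and tested with the robust quasi-likelihood method, with Benjamini-Hochberg adjustment over all genes. Calls needed an FDR below 0.01 and a change of 1.5-fold or more. DESeq2 1.42.0 and limma 3.58.1 (voom), other filters and scalings, a replicate block and the removal of libraries were alternatives, run in R 4.3.3 and Python 3.11.15. The fits were tested on simulated data. Libraries of a group differed by a chi-square per degree of freedom of 27.7 to 141, so none was a second deposit of another. With 3 libraries against 3, the smallest two-sided p of an exact permutation test is 0.1.

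The members and lists were chosen with earlier results of these data known. Values in every library are given for members with an unadjusted p below 0.05, otherwise for the 2 with the smallest p of a class, for SREBF1, SREBF2 and INSIG1, and for up to 2 genes of each pathway list with a p below 0.05. Genes named beyond this were chosen after their values were seen. Promoter sequences are those of RefSeq on GRCh38.p14.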

Additional observations from a re-analysis of the deposited data

How the results depend on the processing

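The 35 members gave 490 values over the alternatives, of which 50 had the other sign, and 14 members had none. Signs were read at 2 decimals, and a value of 0.00 was not counted as a change. The alternatives included the fit without control replicate 1 and siRBM3 replicate 3, a pair chosen after seeing the data. Many of the changed signs came from that fit. NPC2, at 0.00 in the report, ranged from -0.05 to 0.04 with libraries left out. The 5 named pathway genes kept their sign in all 70. These genes had been named for an unadjusted p below 0.05 in the same libraries, and their groups did not overlap. Their kept signs followed from that choice and carry no further support for a change. Counts of the tested members per library ranged from 153 (MYLIP) to 17531 (FASN), so no member was near the filter. Where a value below differs from that of the report, the cause was not tested unless fewer libraries or genes entered the fit.

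Genes called higher and lower, 0 and 0 in edgeR, were 84 and 75 in DESeq2, 127 and 152 with no filter on low counts, 145 and 191 with the replicate block, and 51 and 32 at an FDR below 0.1 with no fold threshold. At an FDR below 0.05 they were 0 and 0. RBM3 passed both thresholds in DESeq2 (-2.14), with no filter (-2.13) and with the replicate block (-2.57). It also passed without control replicate 1 and siRBM3 replicate 3 (-2.17), a pair chosen after seeing the data. With libraries left out RBM3 ranged from -2.40 to -1.96. MBTPS1 (0.63) and HACD2 (-0.66) passed with no filter, and MBTPS1 (0.78) and INSIG1 (0.98, FDR 0.00206 in edgeR) with the replicate block. Members higher at an unadjusted p below 0.05 (0 in the report) were 1 in DESeq2 (ABCA1, 2.86% beside 6.27% of all genes). With the replicate block there were 4 (ABCA1, FASN, INSIG1 and SQLE, 11.4% beside 11.4% of all genes). With libraries left out, 0 to 5 members were higher (0% to 14.3%), beside 4.36% to 7.98% of all genes. Members lower (2 in the report) were 1 (NSDHL, 2.86%) in DESeq2, with library size scaling and at a mean of at least 20 counts. The shares of the 15099 genes lower in these fits were 6.68%, 7.48% and 6.23%. There were 3 in limma-voom (8.57% beside 6.45% of all genes) and 5 with no filter (14.3% beside 8.44%). With the replicate block there were 4 (11.4% beside 13.5%). In the fit of the report there were 0 at p below 0.01 and 0 at an FDR below 0.1. With libraries left out, 0 to 2 members were lower (0% to 5.71%), beside 4.6% to 9.87% of all genes. The replicate numbers share 2 values between groups, with correlations of deviations of 0.65 and 0.09, and the labels do not say that they pair libraries.

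The sterol synthesis median ranged from -0.32 to 0.08 with libraries left out, and was -0.22 under library size scaling and -0.05 with the replicate block. That of fatty acid synthesis ranged from -0.22 to 0.11 with libraries left out and was 0.02 with the replicate block. That of SREBP control was -0.03 under library size scaling. With the replicate block SREBF2 was at 0.07, HMGCS1 0.17, MVK 0.07, SQLE 0.29, LSS 0.10, MSMO1 0.13, DHCR7 0.05, ACLY 0.06, FASN 0.35 and FADS2 0.20. With limma-voom SQLE was at 0.01 and FASN at 0.03. With libraries left out, control replicate 1 and siRBM3 replicate 3 together included, a pair chosen after seeing the data, the ranges that crossed 0, NPC2 apart, were -0.06 to 0.07 for SREBF2, -0.03 to 0.14 for SCAP, -0.37 to 0.25 for HMGCS1, -0.44 to 0.30 for MVK, -0.43 to 0.06 for MVD, -0.35 to 0.01 for IDI1, -0.34 to 0.09 for FDPS, -0.24 to 0.14 for FDFT1, -0.14 to 0.31 for SQLE, -0.31 to 0.32 for LSS, -0.07 to 0.25 for TM7SF2, -0.24 to 0.08 for MSMO1, -0.35 to 0.17 for EBP, -0.18 to 0.04 for SC5D, -0.37 to 0.08 for DHCR7, -0.49 to 0.03 for STARD4, -0.17 to 0.12 for ACLY, -0.27 to 0.48 for FASN, -0.05 to 0.28 for ELOVL6, -0.23 to 0.32 for FADS2 and -0.39 to 0.10 for ACSS2.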
